A study of Mus musculus with 6 samples.

Results

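The genes described here are 9 genes of the endothelium, the cell layer that lines blood vessels, and Vegfa, the growth factor that muscle fibres supply to it. The members, Pecam1, Cdh5, Kdr, Flt1, Tek, Tie1, Eng, Esam, Emcn and Vegfa, were taken by symbol from all non-control probes, which gave 12 probes of the 55681 on the array and all 10 genes among the 20906 tested, of which 13845 have a symbol and the rest are kept under their accession. Total RNA came from the gastrocnemius, a calf muscle, of old male mice (25 months, 3 samples) and young male mice (13 weeks, 3 samples), and the labels name no strain, genotype or treatment. One Cy3 single-colour Agilent array was run per sample, and the comparison asked how old muscle, which the study describes as atrophied, differs from young muscle. The labels do not say that the 3 samples of an age came from separate animals, so the p-values rest on sample spread that could be technical.

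Endothelial cells receive vascular endothelial growth factor A through 2 receptor tyrosine kinases. Kdr (VEGF receptor 2) carries most of the signal for survival and growth, while Flt1 (VEGF receptor 1) binds the ligand tightly with weak kinase activity and also exists as a soluble decoy. Tek (Tie2) and its partner Tie1 form the angiopoietin pathway that keeps mature vessels stable, and Eng (endoglin) is a co-receptor for ligands of the transforming growth factor family. Cdh5 (VE-cadherin), Pecam1 and Esam hold neighbouring endothelial cells together, and Emcn (endomucin) is a sialomucin of capillary and venous endothelium. In skeletal muscle this network supplies each fibre with capillaries.

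A level is given below as a multiple of the 75th percentile of its own array, and a difference as old minus young on the log2 scale with its standard error (SE). All 138 member spots (23 per array) were flagged well above background, none was saturated and none carried an outlier flag. Some were still faint. On young replicate 3 the intensity was 15.5 for Tek. It was 31.8 and 54.4 for the 2 spots of Pecam1, whose coefficient of variation was 37.2%. No array was measured at depth in the sequencing sense, and the number of arrays limits the precision. Between 49.9% and 54.8% of gene spots per array were well above background. Young replicate 3 was the dimmest array, with a 75th percentile of 7.71 on the log2 scale, beside 8.01 to 8.28 elsewhere. The spike-in slope set old replicate 1 apart (0.840, with 0.925 to 0.941 elsewhere), and this array shared a slide row with the 3 young arrays while old replicates 2 and 3 lay in another row. The members' differences without it are given after their values.

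Most vascular members had a lower mean level in old than in young muscle, but no member passed the test. Cdh5, Esam, Flt1 and Vegfa had old values that lay below every young value, with differences of -0.79, -0.52, -0.60 and -0.45. In the other 6 members, Kdr, Tie1, Pecam1, Tek, Eng and Emcn, the ages overlapped. Of the 10 members, 7 had a negative difference (56.9% of all genes tested did), the median was -0.40 beside -0.06 over all genes, and the range ran from -0.79 to 0.52. Limma's moderated test, adjusted by Benjamini-Hochberg over all 20906 genes, called 0 of 10 members at 0.05, where 0.254% of all genes were called (0.0574% as lower in old muscle). At an unadjusted p under 0.05 there were 4 members, all lower in old muscle, against 8.39% of all genes lower and 6.07% higher. The same 4 were the members whose ages did not overlap, which 13.9% of all genes did in that direction, and none lay wholly above the young values (7.92% of all genes, and 21.8% in either direction). In a whole muscle sample, fewer endothelial cells and less RNA per cell cannot be told apart.

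**Figure D1:**
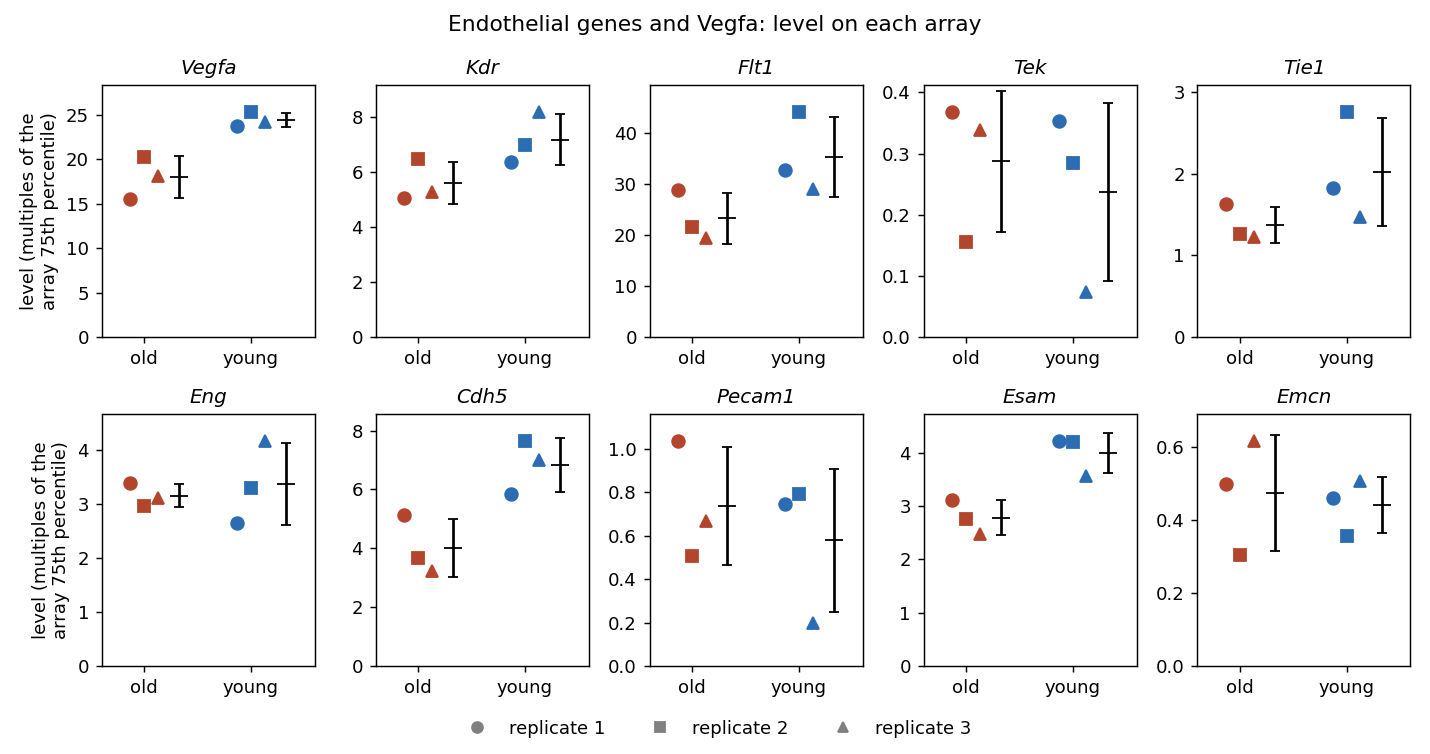
Level of each member on each array, as a multiple of the array's 75th percentile, for old (left) and young (right) samples. Symbols are replicates, and the bar beside them is the mean ± SD of 3 arrays. Cdh5, Esam, Flt1 and Vegfa show all old points below all young points, while in Pecam1 and Tek young replicate 3 lies far below the rest.

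Vegfa, the ligand, had levels of 15.5, 20.3 and 18.2 in old replicates 1 to 3, against 23.8, 25.3 and 24.2 in young replicates 1 to 3 (accession NM_001025250). The young arrays lay close together and the old arrays all lay below them. The difference was -0.45 ± 0.16, or 0.732-fold, with a 95% interval from -0.84 to -0.06 (limma, adjusted p = 0.298). This probe has 2 spots per array, whose coefficient of variation ran from 2.06% to 5.60%. A second probe, designed on NM_001025257, had levels of 3.44, 4.48 and 4.48 in old muscle, against 5.07, 6.58 and 5.57 in young muscle. Its ages did not overlap either, and its difference was -0.48 ± 0.19 (adjusted p = 0.352). Both probes thus gave nearly the same difference.

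Kdr was measured by 2 probes. The probe tested, with 1 spot, had levels of 5.08, 6.48 and 5.29 in old muscle, against 6.36, 6.99 and 8.19 in young muscle. Old replicate 2 lay just above young replicate 1, so the ages overlapped, and the difference was -0.36 ± 0.18 (adjusted p = 0.421). The other probe was printed 10 times on each array and averaged 4.78, 4.52 and 4.47 in old muscle, against 4.31, 6.42 and 7.49 in young muscle. Here young replicate 1 lay below all 3 old arrays and young replicates 2 and 3 above them, with a difference of -0.37 ± 0.23 (adjusted p = 0.516). The SD of the repeated spots within an array was 0.04 to 0.09 on the log2 scale (coefficient of variation from 2.88% to 6.19%), while the SD between the array means was 0.05 in old and 0.41 in young samples. The spread among the young samples was thus several times that of single spots. An array mean averages 10 spots and varies less than a single spot. The 0.05 among old samples therefore cannot be set against the SD of single spots as a like measure.

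**Figure D2:**
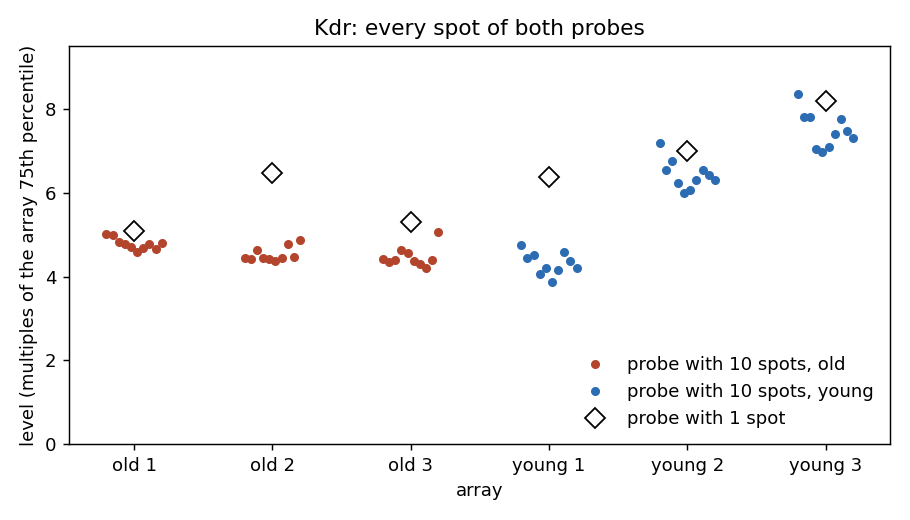
Level of every Kdr spot on each array, as a multiple of the array's 75th percentile, with old arrays left and young arrays right. Small points are the 10 spots of 1 probe and the diamond is the single spot of the other. The spots of an array stay close together, and young replicate 1 lies with the old arrays for the probe with 10 spots.

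Flt1 had levels of 28.9, 21.5 and 19.4 in old muscle, against 32.9, 44.2 and 29.0 in young muscle. The ages did not overlap, but narrowly, since old replicate 1 lay just under young replicate 3. The difference was -0.60 ± 0.24, or 0.659-fold, with a 95% interval from -1.16 to -0.04 (limma, adjusted p = 0.322). Without old replicate 1 it was -0.77 (adjusted p = 0.175). Whether the single Flt1 probe reads the membrane form, the soluble form or both cannot be told from the files.

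Tie1 and Tek, the Tie receptors, both had overlapping ages. Tie1 had levels of 1.63, 1.26 and 1.23 in old muscle, against 1.83, 2.76 and 1.47 in young muscle. Old replicates 2 and 3 lay below all young arrays and old replicate 1 lay among them, with a difference of -0.52 ± 0.27 (adjusted p = 0.421). Without young replicate 2, the highest array, it was -0.27. Tek had levels of 0.368, 0.156 and 0.338 in old muscle, against 0.353, 0.284 and 0.0740 in young muscle. Young replicate 3 was the lowest of all arrays, 3.84-fold and 4.78-fold below young replicates 2 and 1, and the ages overlapped. The difference was 0.46 ± 0.63 (adjusted p = 0.764), with a 95% interval from -1.05 to 1.97, so neither a 2-fold decrease nor a 2-fold increase lay outside it. Without young replicate 3 it was -0.24. Whether Tek and Tie1 differed in their response to age was not tested.

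The start regions of these receptors and their ligand are shown so that their sequences can be compared beside the values. Each is the RefSeq window from 250 bases before to 50 bases after an annotated start (GRCm38.p6, gene strand, 5′ to 3′), in which capitals mark, on either strand, the ETS core AGGAAG, the GC box GGGCGG, the hypoxia core ACGTG, the GATA core GATAAG and the TATA box TATAAA. No marked motif overlaps another. Flt1 lies at chr5:147725962-147726261 (minus strand), Kdr at chr5:75978406-75978705 (minus), Tie1 at chr4:118489800-118490099 (minus), Tek at chr4:94739039-94739338 (plus) and Vegfa at chr17:46032328-46032627 (minus, its upstream start).
Flt1: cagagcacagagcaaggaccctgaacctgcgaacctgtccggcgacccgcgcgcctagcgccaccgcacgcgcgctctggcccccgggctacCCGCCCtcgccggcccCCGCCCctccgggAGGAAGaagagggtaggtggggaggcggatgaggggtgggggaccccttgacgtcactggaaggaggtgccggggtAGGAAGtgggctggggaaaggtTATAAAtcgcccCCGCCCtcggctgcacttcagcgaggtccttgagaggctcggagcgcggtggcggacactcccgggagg
Kdr: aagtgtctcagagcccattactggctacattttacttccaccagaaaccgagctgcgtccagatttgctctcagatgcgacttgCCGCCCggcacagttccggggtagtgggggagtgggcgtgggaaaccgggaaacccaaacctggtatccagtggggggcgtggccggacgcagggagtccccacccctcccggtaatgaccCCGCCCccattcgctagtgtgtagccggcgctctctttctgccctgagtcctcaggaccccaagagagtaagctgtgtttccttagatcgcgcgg
Tie1: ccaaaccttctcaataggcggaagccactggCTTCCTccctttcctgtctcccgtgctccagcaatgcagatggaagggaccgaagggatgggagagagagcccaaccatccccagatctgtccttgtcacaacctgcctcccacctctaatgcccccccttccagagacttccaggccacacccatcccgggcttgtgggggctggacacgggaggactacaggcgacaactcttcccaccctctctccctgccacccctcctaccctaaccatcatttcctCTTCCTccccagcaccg
Tek: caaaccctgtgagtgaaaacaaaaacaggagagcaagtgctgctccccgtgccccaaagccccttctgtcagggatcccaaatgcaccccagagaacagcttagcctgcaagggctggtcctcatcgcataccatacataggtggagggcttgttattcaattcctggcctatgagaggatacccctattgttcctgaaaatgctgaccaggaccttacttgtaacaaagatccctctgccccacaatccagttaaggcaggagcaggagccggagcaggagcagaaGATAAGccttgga
Vegfa: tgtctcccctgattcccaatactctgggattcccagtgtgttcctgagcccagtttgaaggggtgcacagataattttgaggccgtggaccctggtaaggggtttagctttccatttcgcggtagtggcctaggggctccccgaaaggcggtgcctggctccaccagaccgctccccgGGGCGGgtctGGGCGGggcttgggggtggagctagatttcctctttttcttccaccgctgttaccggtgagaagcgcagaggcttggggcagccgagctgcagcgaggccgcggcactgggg

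The window of Flt1 is the richest of these, with 2 ETS cores, 3 GC boxes and a TATA box that begins 31 bases before the start. Tie1 has 2 ETS cores, Kdr and Vegfa have 2 GC boxes each, and Tek has neither of these and a single GATA core 38 bases into the transcript. The guanine and cytosine share of the windows was 70.7% for Flt1, 60.7% for Kdr, 60.3% for Tie1, 62% for Vegfa and 52% for Tek. Of the 10 members, 7 matched this table, and 4 of those 7 (Flt1, Tie1, Eng and Emcn) held an ETS core, which 35.4% of all 32851 windows held. The GC box was in the windows of 3 members (35.7% of all windows). The TATA box and the GATA core were in 1 member each (13.6% and 7.44% of all windows). The hypoxia core, in 19.6% of all windows, appeared in 1 window, that of a second, downstream start of Vegfa. A match of letters is a description of sequence only.

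Eng, the co-receptor, had levels of 3.39, 2.97 and 3.12 in old muscle, against 2.66, 3.31 and 4.18 in young muscle. The old arrays lay inside the young range. The difference was -0.08 ± 0.20 (limma, adjusted p = 0.882), with a 95% interval from -0.56 to 0.41. Eng turned to 0.09 without young replicate 3 and to 0.03 with the slide row as a block.

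Cdh5, the cadherin of endothelial junctions, had levels of 5.12, 3.66 and 3.24 in old muscle, against 5.84, 7.65 and 7.02 in young muscle. All old arrays lay below all young ones, with old replicate 1 nearest to them. The difference was -0.79 ± 0.22, or 0.579-fold, with a 95% interval from -1.32 to -0.26 (limma, adjusted p = 0.215). Without old replicate 1 it was -0.98 (adjusted p = 0.0871). Esam, an adhesion molecule of tight junctions that platelets also carry, had levels of 3.12, 2.75 and 2.47 in old muscle, against 4.22, 4.2 and 3.56 in young muscle. Its ages did not overlap, and its difference was -0.52 ± 0.17, or 0.695-fold, with a 95% interval from -0.93 to -0.12 (adjusted p = 0.257).

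Pecam1, which leukocytes and platelets carry beside endothelium, had levels of 1.04, 0.505 and 0.667 in old muscle, against 0.748, 0.790 and 0.198 in young muscle. As with Tek, young replicate 3 was the lowest of all arrays, and both of its spots were low (0.152 and 0.260). The difference was 0.52 ± 0.57 (adjusted p = 0.692), and it was -0.13 without young replicate 3. The positive sign of Pecam1 and Tek thus rested on that array, and without it 8 of 10 members were negative (53.5% of all genes). Emcn had levels of 0.50, 0.304 and 0.617 in old muscle, against 0.459, 0.356 and 0.506 in young muscle. The young values lay inside the old range, with a difference of 0.06 ± 0.29 (adjusted p = 0.937).

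**Figure D3:**
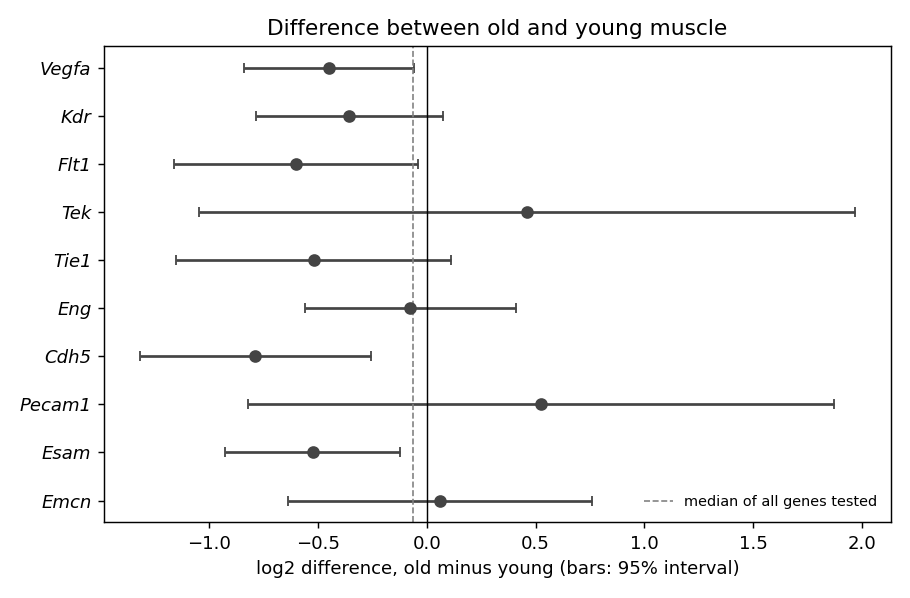
Log2 difference (old minus young) of each member with its 95% interval from limma, on 3 arrays per age. The dashed line is the median of all genes tested, -0.06. The intervals of Cdh5, Esam, Flt1 and Vegfa lie below 0, and those of the other 6 members hold 0.

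The members did not all move together from array to array, but their medians differed by age. The median deviation of the members from their own means was 0.02, -0.32 and -0.23 on old replicates 1 to 3. On young replicates 1 to 3 it was 0.18, 0.33 and 0.14. Over all genes this median lay between -0.04 and 0.11 on every array. Relative to each gene's mean over the 6 arrays, old replicates 2 and 3 lay below all 3 young arrays in 6 of 10 members each, and old replicate 1 in 5. Old replicate 1 also lay above all young arrays in 2 members, old replicate 3 in 1 and old replicate 2 in 0. For single old arrays the shares over all genes were not counted. Whether the members differ from other genes here is thus not known. Without old replicate 1 the differences were -0.98 for Cdh5, -0.77 for Flt1, -0.65 for Tie1, -0.61 for Esam, -0.35 for Vegfa, -0.29 for Kdr, -0.13 for Eng, -0.01 for Emcn, 0.23 for Tek and 0.25 for Pecam1. The members' median was then -0.32, 8 of 10 were negative (54.2% of all genes) and again 0 passed, where 0.908% of all genes did. Old replicate 1 can be set against young arrays of its own slide row. With the row as a block, which rests on that single old array, the differences were -0.41 for Cdh5, -0.35 for Esam, -0.27 for Flt1, -0.26 for Tie1, -0.49 for Kdr and -0.65 for Vegfa, against 1.08 for Pecam1 and 0.92 for Tek, with adjusted p of at least 0.326.

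**Figure D4:**
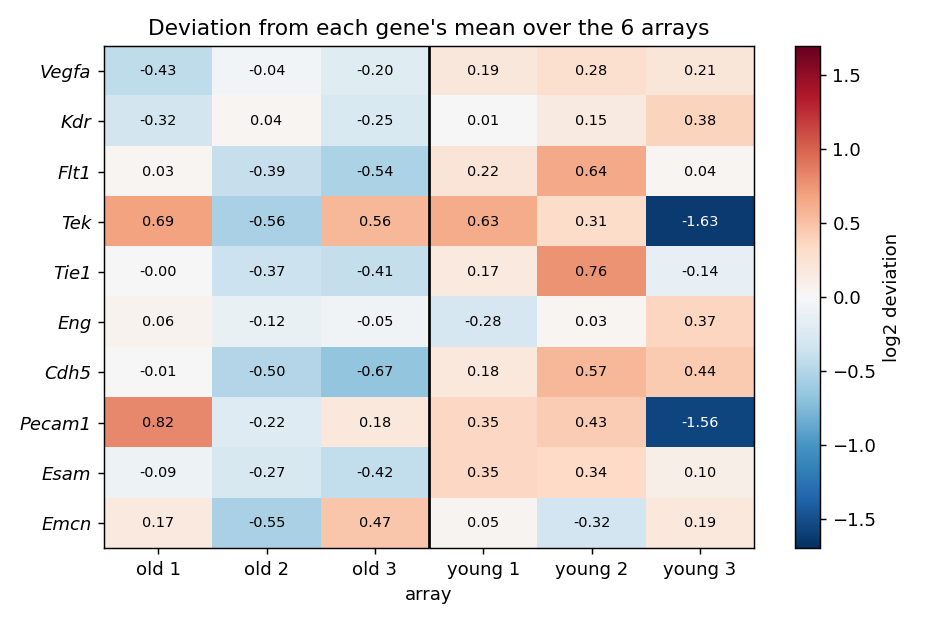
Log2 deviation of each member from its own mean over the 6 arrays, with old arrays left of the line and young arrays right. Young replicate 3 stands out for Tek (-1.63) and Pecam1 (-1.56), and old replicates 2 and 3 are negative in most rows.

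Around the members, lists of related genes were followed through the same fit. Of 136 companion genes tested in 14 lists, 0 passed limma's test over all genes, and the lowest adjusted p was 0.125. Values named below are differences of the genes with the lowest p in each list. Over all genes tested 56.9% were negative, and the ages did not overlap in 13.9% with old lower and in 7.92% with old higher. In the list of VEGF ligands and co-receptors 4 of 6 were negative (median -0.33). Placental growth factor Pgf, a ligand of Flt1, had -0.95 ± 0.25 and the lymphatic growth factor Vegfc -0.81 ± 0.27, and in both the old values lay below all young values. Vegfb, another Flt1 ligand, had -0.48 ± 0.23 and the co-receptor Nrp2 -0.19 ± 0.15. Among 5 genes of the angiopoietin pathway the median was -0.14, and -0.29 without old replicate 1. The phosphatase Ptprb, which acts on Tek, had -0.91 ± 0.32, the Tek ligand Angpt1 -0.69 ± 0.26, the matrix protein Svep1 0.18 ± 0.15 and the adaptor Dok2 0.20 ± 0.29. In the endoglin and ALK1 list 7 of 10 were negative (median -0.29, and -0.09 without young replicate 3). The inhibitory Smad6 had -0.86 ± 0.20, Smad7 -0.77 ± 0.21, the receptor Bmpr2 -1.79 ± 0.58 and the target Id2 0.47 ± 0.24.

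Further genes from endothelial lists, not all particular to endothelium, are set here beside the shares over all genes. These were 56.9% negative, 13.9% not overlapping with old lower and 7.92% with old higher. Of 57 genes tested in the lists of junction and surface proteins, of secreted proteins, enzymes and transporters, and of transcription factors, 46 (80.7%) were negative, the median was -0.43 and the ages did not overlap in 18 (31.6%) with old lower and in 1, the prostaglandin transporter Slco2a1 (0.76 ± 0.28), with old higher. The surface genes with the lowest p were the adhesion molecule Icam2 (-0.81 ± 0.23), the adhesion receptor Adgrf5 (-1.36 ± 0.45), the guidance receptor Robo4 (-0.87 ± 0.29) and Jam2 of tight junctions (-0.53 ± 0.18). Over the processing alternatives Adgrf5 ran from -1.81 to -0.46 and Robo4 from -1.15 to -0.32. In this list 17 of 23 genes were negative and 6 were positive. The largest positive differences were those of Aplnr (0.84 ± 0.55), Cd34 (0.69 ± 0.52) and Podxl (0.64 ± 0.32). Over the processing alternatives Aplnr ran from 0.02 to 1.39 and Podxl from 0.32 to 0.84. Cd34 ran from -0.54 to 1.31 and so changed sign. In the second list they were the matrix protein Sparcl1 (-0.93 ± 0.22), the water channel Aqp1 (-0.68 ± 0.18), the scaffold Slc9a3r2 (-0.65 ± 0.19) and the peptide ligand Apln (-1.20 ± 0.40). Apln was well above background on only 2 old arrays and on 3 young arrays. Esm1, which endothelial cells secrete on VEGF signalling, had 0.906, 0.185 and 0.158 in old muscle, against 0.563, 0.541 and 0.467 in young muscle. It differed by -0.81 ± 0.63 (limma, adjusted p = 0.582). Without old replicate 1 the difference was -1.61 (adjusted p = 0.0304). Esm1 was then the 1 gene of this list that passed, where 0.908% of all genes did. It was chosen after that value was seen.

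Transcription factors of the endothelial list were negative in 14 of 17 cases (median -0.37), where 56.9% of all genes were. Other cells of a muscle can also make some of them, such as Foxo1 and Mef2c, so the count is not one of endothelial cells alone. Sox17 had levels of 1.28, 1.17 and 0.979 in old muscle, against 2.05, 2.25 and 1.79 in young muscle, a difference of -0.83 ± 0.18 (limma, adjusted p = 0.149). The ETS factors Erg and Fli1 had -0.78 ± 0.21 and -0.69 ± 0.21, and the flow-responsive Klf2 had -0.91 ± 0.28. In all 4, which were named for their low p, the old values lay below all young values, as in 7 of the 17 and in 13.9% of all genes. The list of hypoxia genes and regulators of Vegfa had a median of -0.17 over 14 genes, and -0.40 without old replicate 1. Its lowest p belonged to the hypoxia-induced Ankrd37 (-0.92 ± 0.23), the nuclear receptor Esrra (-0.51 ± 0.18), the oxygen sensor Egln1 (-0.43 ± 0.20) and the hypoxia factor Epas1 (-0.45 ± 0.21). Hif1a had -0.19 ± 0.21 and the coactivator Ppargc1a -0.02 ± 0.23, named here because both regulate Vegfa. Of 8 angiogenesis inhibitors 6 were negative (median -0.30, and -0.17 without old replicate 1), with Timp3 at -0.36 ± 0.17, Sema3a at -0.75 ± 0.49, Col18a1 at -0.43 ± 0.29 and Vash1 at 0.20 ± 0.21. Sema3a was well above background on only 1 old and 2 young arrays, and its difference was -0.20 without old replicate 1.

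**Figure D5:**
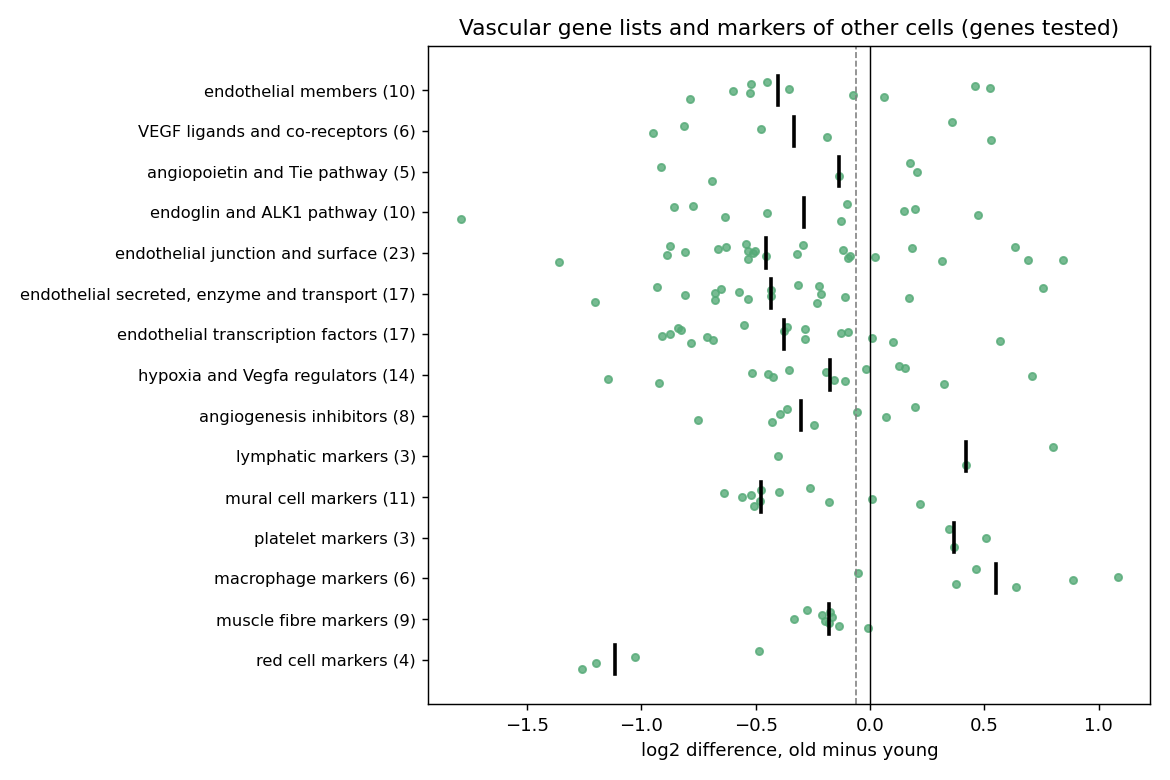
Log2 difference (old minus young) of every tested gene in the members' list, the companion lists and the marker lists of other cells, with the number tested in parentheses. Black bars are list medians, the solid line is 0 and the dashed line is the median of all genes tested. No gene shown passed the test over all genes. The red cell, mural and endothelial lists lie mostly left of 0 and the macrophage list mostly right.

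Markers of other cells were read in the same samples. None passed the test, and their part in the results was not tested. Of 11 mural cell markers (pericytes and smooth muscle), all tested, 9 were negative with a median of -0.48, and their summed level was 66.8 to 73.7 in old muscle, against 85.8 to 96.6 in young muscle. Abcc9, Tagln and Rgs5 were the brightest, with differences of -0.51 ± 0.24, -0.26 ± 0.20 and -0.48 ± 0.22. Abcc9 alone made up a large part of these sums, with levels of 26.9, 15.8 and 25.7 in old muscle, against 30.0, 32.6 and 32.0 in young muscle. Whether muscle fibres also contribute to Abcc9 or other genes of this list was not tested. All 4 red cell markers were negative (median -1.11), with summed levels of 79.8 to 153 in old muscle, against 194 to 326 in young muscle, among them the globins Hba-a1 (-1.20 ± 0.32) and Hbb-bt (-1.03 ± 0.34). Of 6 tested macrophage markers, 5 were positive (median 0.55), with sums of 23.1 to 28.4 in old muscle, against 20.3 to 22 in young muscle. In 5 the old values lay above all young values, as in 7.92% of all genes. Csf1r, Cd68 and C1qa were the brightest, with differences of -0.05 ± 0.16, 1.08 ± 0.27 and 0.38 ± 0.18. Csf1r alone made up a large part of these sums, with levels of 14.7, 12.6 and 11.5 in old muscle, against 13.1, 13.3 and 13.8 in young muscle. C1qb (0.89 ± 0.17) had the lowest adjusted p of all companion genes (limma, 0.125). Cd163 was not well above background on enough arrays to be tested. Platelet markers, 3 of 5 tested, had sums of 9.70 to 15.3 in old muscle, against 7.51 to 11 in young muscle. Their median was 0.37, 0.69 without old replicate 1 and 0.19 without young replicate 3. The defining receptor genes Itga2b and Gp1ba were not tested for the same reason. Lymphatic markers, 3 of 6 tested and without the defining Prox1, had sums of 5.68 to 10.9 in old muscle, against 3.74 to 5.68 in young muscle, and a median of 0.42 (0.18 without old replicate 1). The 9 muscle fibre markers had a median of -0.18 and all were negative, while without old replicate 1 the median was -0.05 and 7 of 9 were negative. Without young replicate 3 the median was -0.11. They had sums of 5631 to 7380 in old muscle, against 6787 to 8290 in young muscle.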

How the data were processed

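Per the file headers, Agilent Feature Extraction 11.0.1.1 subtracted background and removed spatial trends to give the intensity used here, while the submitters' processing notes name version 9.5. The authors' deposited value table, an alternative, equalled that intensity over the 75th percentile of all spots of its array, times 100 and rounded. Its column medians were 9, 7 and 6 for old replicates 1 to 3 and 6, 7 and 7 for young replicates 1 to 3.

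Control spots and 161 to 212 outlier spots per array were dropped. Deposited intensities went to log2, spots of one probe were averaged, and each array was set to its 75th percentile over probes. The 28012 probes well above background on at least 3 arrays were kept and named through RefSeq accessions (28331 of all 55681 probes matched 1 symbol). The probe with the highest mean stood for its gene. The ages were compared with limma (version 3.58.1, R 4.3.3), two-sided, with Benjamini-Hochberg adjustment at 0.05 over all genes. The script was tested on simulated data.

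The members and lists were chosen with earlier results of these data known. All members are named, with up to 4 genes of lowest p per companion list and up to 3 of the highest level per list of other cells. Some genes, such as Aplnr, Cd34, Podxl, Esm1 and C1qb, are named outside this rule. Normexp used each spot's median signal. Replicate numbers did not pair the samples (correlations of deviations from -0.27 to 0.03).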

Additional observations from a re-analysis of the deposited data

How the results depend on the processing

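All 18 alternatives called 0 of 10 members, with a lowest adjusted p of 0.0832 (Cdh5, array weights). Of 180 member values under them, 170 kept their direction and 10 changed sign. Cdh5, Flt1, Esam, Tie1, Kdr and Vegfa stayed negative throughout, though Tie1 ran from -0.72 to -0.27 when an array was left out. Leaving out 1 array at a time gave -0.13 to 0.87 for Pecam1, -0.24 to 0.89 for Tek and -0.24 to 0.089 for Eng, where young replicate 3 was the array that turned each sign, and -0.16 to 0.35 for Emcn, which was negative without young replicate 2, old replicate 1 or old replicate 3. Array weights gave -0.022 for Pecam1 and -0.066 for Tek, the slide row as a block 0.027 for Eng, and median centring -0.086 for Emcn. The weights were lowest for old replicate 1 (0.448) and young replicate 3 (0.535), with 1.16 to 2.04 elsewhere. Normexp, which adds an offset of 50, gave 0.24 for Pecam1 and 0.12 for Tek, beside 0.52 and 0.46 as reported. The members' median was -0.55 with median centring and -0.26 when slide row was a block, and it ran from -0.46 to -0.32 when an array was left out. Median centring also moved the median of all genes to -0.21, from -0.06. The count of all genes past the threshold, 53 as reported, was 35 when all 6 arrays had to exceed background, 8 with no filter, 194 with array weights, 5 with the replicate number as a block and 1 to 186 when an array was left out. That block changed no member's call, and 0 of 6 arrays correlated best with their own number. Of the genes called, 26 of 42 were higher in old muscle with median centring, 38 of 61 with normexp, 22 of 41 when slide row was a block and 91 of 186 without old replicate 1, beside 41 of 53. The causes were not tested. Every member spot was well above background.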

Other observations

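Young replicate 3 was low in more than Pecam1 and Tek. Of the 146 genes tested in all lists, 8 had a level on that array more than 2-fold below both other young arrays, a group picked after the values were seen and not tested. The share over all genes was not counted, so whether the lists differ from other genes here is not known. They included 4 further endothelial-list genes. The adhesion receptor Adgrl4 had 1.71, 1.13 and 1.41 in old muscle, against 1.74, 1.52 and 0.528 in young muscle. The lipid receptor S1pr1 had 6.18, 4.09 and 3.95 in old muscle, against 6.76, 8.56 and 3.17 in young muscle. Timp4 had 7.27, 5.94 and 4.04 in old muscle, against 9.16, 8.85 and 3.41 in young muscle. The forkhead factor Foxo1 had 33.2, 14.0 and 9.64 in old muscle, against 33.1, 22.6 and 5.89 in young muscle.

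The stress-responsive Ddit4 had 175, 9.52 and 8.83 in old muscle, against 98.5, 213 and 7.56 in young muscle, so 1 old and 2 young arrays were high and the others more than 10-fold lower. The VEGF co-receptor Nrp1 had 0.323, 0.244 and 0.372 in old muscle, against 0.374, 0.232 and 0.112 in young muscle. Cdh5, Kdr and Eng were not low on young replicate 3, where each lay above young replicate 1.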
